A study of Rattus norvegicus with 12 samples.

Results

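The genes described are 37 genes by which astrocytes and their reactive states are usually recognised, chosen by name with earlier results of these data known, so counts of these genes are a description and no independent support. They comprise 6 genes of astrocyte identity, 10 of the pan-reactive panel, 7 of the A1 panel, 10 of the A2 panel and 4 further genes of reactive astrocytes, out of 28111 gene names in the files. A row was matched for 35 of them, and Serpina3n and Nes were not analysed here. Wistar rat cortex was cultured as mixed neurons and glia for 10 days in vitro, and RNA for the 12 libraries was collected 4 h after an addition. Cultures received nothing (IC, intact culture), extracellular vesicles of human iPSC-derived glial progenitor cells at 10 µg/mL (EV), the 3–100 kDa proteins of their conditioned medium at 15 µg/mL, or the total secretome at 45 µg/mL, with 3 libraries for each condition. The pups were newborn by both the labels and the methods, with a slightly higher age in days in the methods. All cultures, IC included, had been given cytosine arabinoside, an agent that removes dividing cells. Doses differed between the preparations. The study's methods state for its experiments in general that they were repeated on unrelated cultures, and name day as a covariate of the IC and EV libraries, but the sources used here do not tie a library to a culture or a day, so p-values measure the spread between these libraries, which may be technical.

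Astrocytes clear glutamate and potassium, couple to one another through connexin channels and surround vessels and synapses. After injury or inflammation they enter reactive states, in which intermediate filament genes such as Gfap and Vim and a shared pan-reactive panel are induced. Genes that were induced more by inflammation in mice were named A1 and those induced more by ischaemia A2. The panels are reference lists, and several of their members are also made by microglia, endothelial cells and fibroblasts.

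The values are TPM, a transcript's share of a library corrected for its length, each library sums to 1000000, and the read depth is unknown. Since the ribosomal protein gene Rps6 was listed at 0 in all 12 libraries, a listed 0 may be a failed estimate. The 10 neuronal markers summed to 3877–4030 TPM in IC, 3694–4055 in EV, 3260–3811 with the 3–100 kDa proteins, all below IC, and 3157–3951 with the total secretome, and 24 further astrocyte identity genes to 4290–7177 TPM, so both cell classes of the labelled culture were present in every library. The 10 microglial markers summed to 0.190–2.42 TPM, with Trem2 and Ptprc at 0 in all 12 libraries, and the 5 endothelial markers found to 0.112–0.374 TPM in IC, 0–0.540 in EV, 0.734–0.904 with the 3–100 kDa proteins, all above IC, and 0.281–0.781 with the total secretome. The 8 markers of mural cells and fibroblasts summed to 3.15–4.28 TPM in IC, 2.05–3.44 in EV, 3.30–4.17 with the 3–100 kDa proteins and 2.24–3.34 with the total secretome. Their members did not share a direction. Pdgfrb, the receptor that defines mural cells, was at 2.45–4.01 TPM in IC, 0.960–1.73 in EV, 0.321–0.851 with the 3–100 kDa proteins and 1.03–1.34 with the total secretome, and with the 3–100 kDa proteins it was lower by limma (log2 fold change −1.42, SE 0.24, adjusted p = 0.0239). Col1a1, a fibroblast collagen, was at 0.0365–0.360 TPM in IC and 0.576–1.81 TPM in the treated libraries. The 8 markers of the oligodendrocyte lineage summed to 183–236 TPM in IC, 193–232 in EV, 124–189 with the 3–100 kDa proteins and 238–265 with the total secretome. The part of these marker shifts in the results below was not tested. In such mixed cultures, fewer cells of a type and less RNA per cell cannot be told apart.

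For each of the 6 identity genes the range of the IC libraries overlapped with that of every preparation. Among them, S100b, which encodes a calcium-binding protein, was the highest, at 241, 344 and 157 TPM in IC, 242, 223 and 148 in EV, 231, 236 and 173 with the 3–100 kDa proteins, and 219, 266 and 200.4 with the total secretome. Aqp4, the water channel of astrocyte endfeet, was at 109, 66.6 and 87.2 TPM in the 3 IC libraries, 51.5, 130 and 96.8 in EV, 67.6, 140 and 93.3 with the 3–100 kDa proteins, and 97.4, 116 and 94.8 with the total secretome. High and low libraries of both genes occurred within each condition. Gja1, the main connexin of astrocytes, was at 120, 75.1 and 73.6 TPM in IC, 69.7, 116 and 85.8 in EV, 93.6, 134 and 100.0 with the 3–100 kDa proteins, and 116, 117 and 102 with the total secretome. IC replicate 1 lay above all 3 libraries of the total secretome and the other IC libraries below them. Sox9, a transcription factor of astrocytes, was at 32.2, 58.3 and 32.3 TPM in IC, 47.0, 49.8 and 33.9 in EV, 45.2, 44.3 and 32.2 with the 3–100 kDa proteins, and 40.1, 51.2 and 44.6 with the total secretome. Its highest library was IC replicate 2. Aldh1l1, an enzyme of folate metabolism, was at 14.9, 13.2 and 10.5 TPM in IC, 15.9, 12.2 and 10.6 in EV, 14.6, 9.69 and 10.5 with the 3–100 kDa proteins, and 13.5, 12.8 and 14.2 with the total secretome. Fgfr3, a receptor for fibroblast growth factors, was at 23.9, 13.8 and 16.8 TPM in IC, 14.8, 13.5 and 12.9 in EV, 14.0, 13.6 and 12.7 with the 3–100 kDa proteins, and 18.9, 16.9 and 14.8 with the total secretome. Its highest library was IC replicate 1, and the other IC libraries lay within the range of the treated ones.

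Against IC, no identity gene passed limma at an adjusted p under 0.05 in any of the 3 comparisons, nor did any combine a fold change over 1.5 with an unadjusted p under 0.05. Log2 fold changes, on the scale of log2(TPM + 1), lay between −0.35 and 0.37, with SEs of 0.16 to 0.33 and adjusted p of 0.339 to 0.9998. The widest interval was that of Aqp4 in EV, where the difference of 0.00 had a 95% interval from −0.77 to 0.77. For Gja1 with the total secretome, the difference of 0.37 had an interval from −0.02 to 0.76, and for Fgfr3 in EV, the difference of −0.35 had one from −0.85 to 0.14. These intervals allow a change of identity genes in either direction that is smaller than the changes of the leading reactive genes given next. Of the 24 further identity genes, 22 could be tested, and 1 passed the adjusted threshold in 1 comparison. This was Ppp1r3c, named after its values were seen, a subunit that directs a phosphatase to glycogen, whose IC libraries held 17.1, 15.8 and 12.8 TPM, against 4.98, 7.18 and 5.29 TPM with the 3–100 kDa proteins (log2 fold change −1.23, SE 0.18, limma adjusted p = 0.0143).

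**Figure D1:**
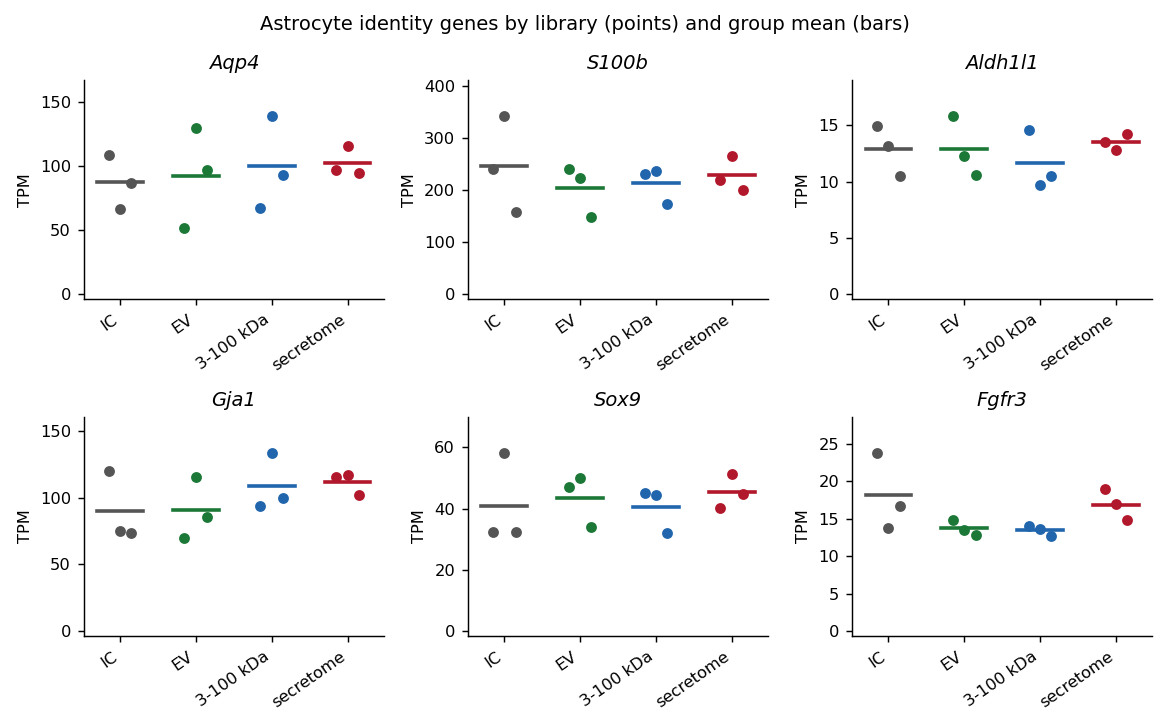
TPM of the 6 identity genes (y axis, from 0) in each library (points) of the 4 conditions (x axis), with bars at the group means. For Aqp4 and S100b the ranges of all 4 conditions overlap, and the IC libraries of Fgfr3 spread from 13.8 to 23.9 TPM.

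Among the reactive genes, at an adjusted p under 0.05 in limma, 3 of the 37 genes were higher in EV than in IC (Cd44, Timp1 and S1pr3), where 0.102% of all genes tested were higher, and with the replicate number as a block none was. With the 3–100 kDa proteins 8 of the 37 genes rose, against 2.83% of all genes, and with the total secretome 8 rose, against 1.68%. The 8 were Vim, Cd44, Timp1, S1pr3, Emp1, Clcf1, Sphk1 and Pdpn in both comparisons, which share the IC libraries, and no gene of the 37 fell in any of the 3. By an unadjusted p under 0.05 and a fold change over 1.5, 11 of the 24 genes tested in EV were higher (1.56% of all genes), 12 of 25 with the 3–100 kDa proteins (6.64%) and 14 of 26 with the total secretome (5.54%). The genes tested include some that passed the filter on low values only through treated libraries, namely Sphk1, Clcf1 and Tlr2, none of which reached 1 TPM in an IC library.

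In the pan-reactive panel, 3 genes of the cell surface and matrix were higher with all 3 preparations. Cd44, the receptor for hyaluronan, was at 4.87, 1.08 and 2.08 TPM in IC, 22.3, 49.98 and 39.0 in EV, 63.5, 98.7 and 104 with the 3–100 kDa proteins, and 51.8, 60.8 and 61.2 with the total secretome. All 9 treated libraries were above all IC libraries, and the EV libraries were below all the others that were treated. Its mean TPM was 13.9-fold that of IC in EV, 33.1-fold with the 3–100 kDa proteins and 21.6-fold with the total secretome, and without IC replicate 1, the highest of IC, these ratios were 23.5, 56.1 and 36.7. The log2 fold changes were 3.43 (SE 0.42, limma adjusted p = 0.0466), 4.74 (SE 0.38, adjusted p = 0.00143) and 4.15 (SE 0.34, adjusted p = 0.00312). Timp1, a secreted inhibitor of metalloproteinases, was at 9.24, 19.7 and 8.90 TPM in IC, 101, 125 and 95.4 in EV, 218, 200 and 260 with the 3–100 kDa proteins, and 97.0, 170 and 169 with the total secretome. No treated library overlapped with IC, and the libraries of the 3–100 kDa proteins were the highest. Its log2 fold changes were 3.06 (SE 0.29, limma adjusted p = 0.0154), 4.17 (SE 0.30, adjusted p = 0.00131) and 3.49 (SE 0.36, adjusted p = 0.00585). S1pr3, a receptor for sphingosine-1-phosphate, was at 4.84, 7.10 and 3.59 TPM in IC, 21.2, 35.7 and 25.3 in EV, 31.7, 49.1 and 43.1 with the 3–100 kDa proteins, and 34.1, 51.9 and 33.7 with the total secretome. All treated libraries were again above IC, while the 3 treated conditions overlapped in part. Its log2 fold changes were 2.20 (SE 0.26, limma adjusted p = 0.0454), 2.82 (SE 0.26, adjusted p = 0.00215) and 2.75 (SE 0.25, adjusted p = 0.00398).

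The calls in EV depended on the libraries kept and on the fit without a block, as did those of all genes. With the replicate block, the limma adjusted p in EV was 0.172 for Cd44, 0.0637 for Timp1 and 0.0637 for S1pr3, and 12 genes of the 37 passed the unadjusted p and fold change, against 1.73% of all genes. By that fit 0 of all 12754 genes passed the adjusted threshold. Without any 1 of IC replicate 1, IC replicate 3 or the 3 EV replicates, no gene of the 37 passed the adjusted threshold in EV. In these fits 0 of all genes passed it, or 2 without IC replicate 3. Without IC replicate 2, where 21 of all 12593 genes were higher, Timp1 (limma adjusted p = 0.00384) and S1pr3 (adjusted p = 0.0408) passed, while Cd44 had an adjusted p of 0.0611. Across the 6 omissions the log2 fold changes in EV stayed between 3.08 and 3.79 for Cd44, 2.86 and 3.40 for Timp1, and 2.03 and 2.41 for S1pr3. With the 3–100 kDa proteins and with the total secretome, Cd44, Timp1, S1pr3 and Emp1 passed in all 6 omissions of each comparison.

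The intermediate filament genes of the panel had different calls, and a difference between them was not tested. Gfap, the classical marker of reactive astrocytes, was at 85.1, 361 and 128 TPM in IC, 491, 617 and 362 in EV, 242, 447 and 310 with the 3–100 kDa proteins, and 271, 635 and 408 with the total secretome. IC replicate 2 stood far above the other IC libraries and overlapped with the libraries of the 3–100 kDa proteins and of the total secretome. The EV libraries did not overlap with IC, though the lowest of them lay only just above IC replicate 2. In limma, Gfap passed the unadjusted p and fold change in EV and with the total secretome. The log2 fold changes were 1.58 (SE 0.51), 1.05 (SE 0.51) and 1.40 (SE 0.55), and none passed the adjusted threshold in limma (adjusted p = 0.9998, 0.356 and 0.269). For the total secretome, replicate numbers were read as paired with those of IC from the values alone. There the limma fit with the replicate block gave an SE of 0.20 and an adjusted p of 0.0252. Without IC replicate 2, the limma adjusted p of Gfap was 0.0744 in EV, 0.0370 with the 3–100 kDa proteins and 0.0359 with the total secretome. Vim, which encodes vimentin, was at 107, 196 and 101 TPM in IC, 196, 328 and 221 in EV, 437, 585 and 622 with the 3–100 kDa proteins, and 331, 515 and 412 with the total secretome. The lowest EV library was level with the highest IC library, and the libraries of the other preparations lay above all IC and EV libraries. Vim rose with the 3–100 kDa proteins by 2.10 on the log2 scale (SE 0.29, limma adjusted p = 0.0108) and with the total secretome by 1.70 (SE 0.29, adjusted p = 0.0333), and the difference in EV was 0.90 (SE 0.29, adjusted p = 0.9998). These calls for Vim were lost without IC replicate 1 (adjusted p = 0.0538) or replicate 2 or 3 of the 3–100 kDa proteins (0.0639 and 0.0627), and for the total secretome without any 1 library other than IC replicate 2 (adjusted p = 0.0514 to 0.177).

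Of the remaining pan-reactive genes, Cp, which encodes the copper carrier ceruloplasmin, was at 1.504–3.37 TPM in all 12 libraries, with log2 fold changes between −0.01 and 0.17. Lcn2 and Steap4, genes of iron handling, were listed at 0 in all IC libraries and reached at most 0.659 and 0.286 TPM in a treated library. Aspg was at 0–0.904 TPM over the 12 libraries. These 3 genes stayed below the filter of 1 TPM in 3 libraries and were not tested in the main fit. Without the filter none of the 3 passed the unadjusted p and fold change against IC, which does not show that they were unchanged.

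**Figure D2:**
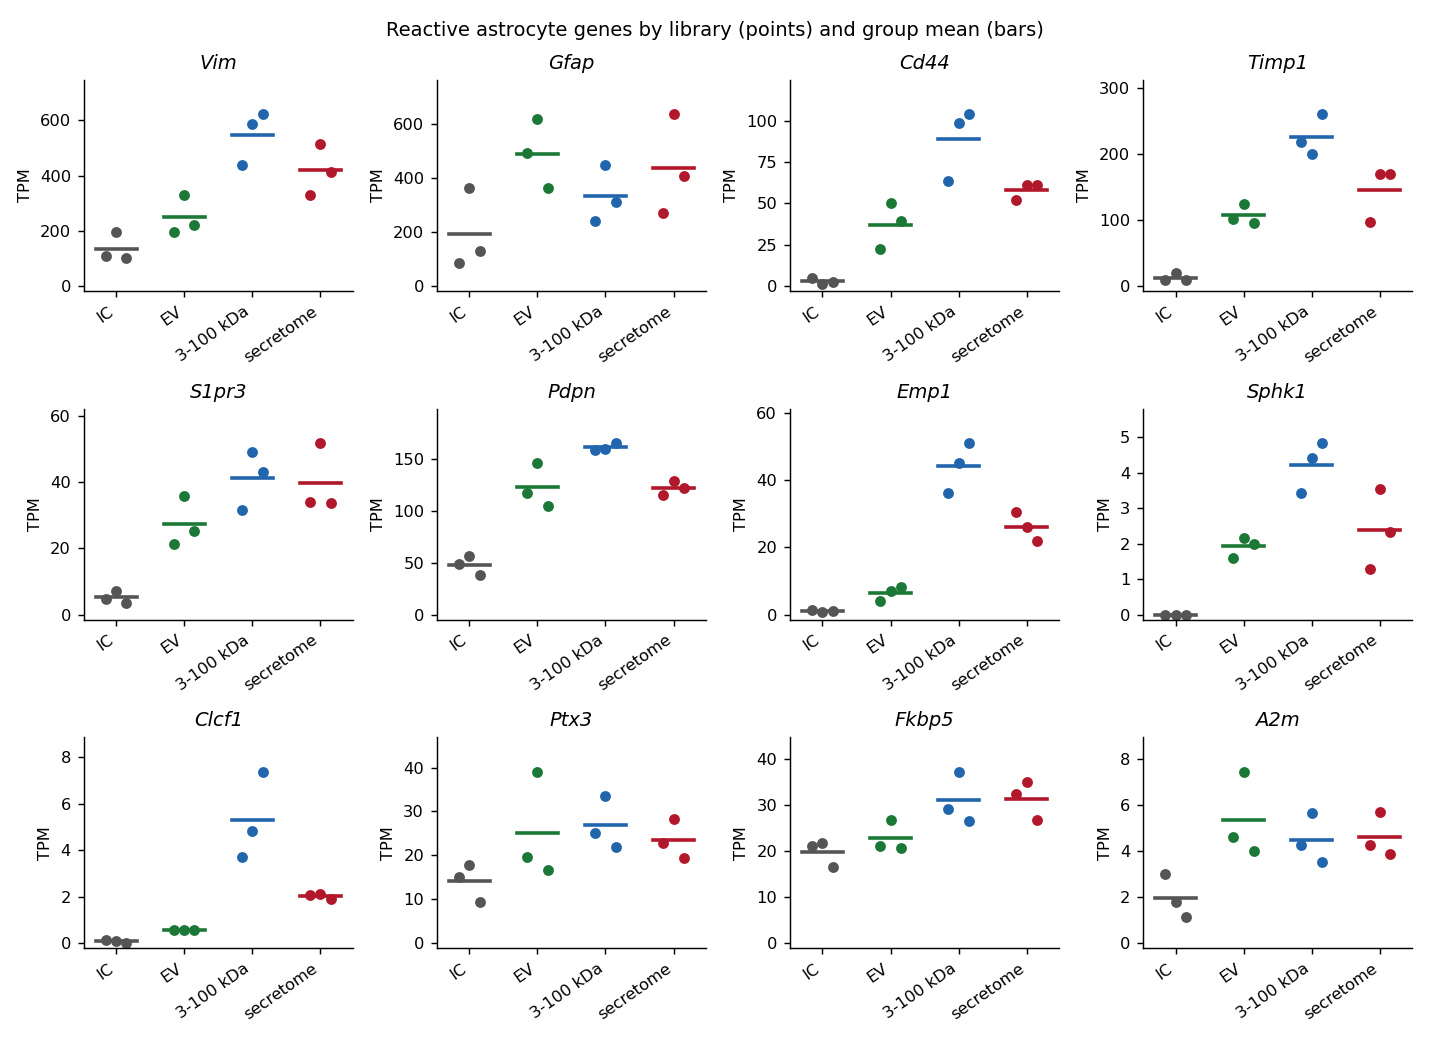
TPM of reactive genes (y axis, scaled for each gene as marked) in each library (points) of the 4 conditions (x axis), with bars at the group means. For Cd44 and Timp1 all 9 treated libraries lie above the IC libraries, and for Gfap IC replicate 2, at 361 TPM, lies within the range of the treated libraries.

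In the A2 panel, Emp1, a membrane protein of epithelial and other cells, had the largest difference from IC on the log2(TPM + 1) scale. By the ratio of mean TPM, with all libraries kept, that of Clcf1 was larger than that of Emp1. Emp1 was at 1.43, 0.664 and 1.18 TPM in IC, 4.01, 6.997 and 8.14 in EV, 36.1, 44.9 and 51.0 with the 3–100 kDa proteins, and 30.5, 26.0 and 21.8 with the total secretome. The 4 conditions did not overlap, in the order IC, EV, total secretome and 3–100 kDa proteins. Mean TPM was 5.84-fold, 40.3-fold and 23.9-fold that of IC in EV, with the 3–100 kDa proteins and with the total secretome. Log2 fold changes were 1.78 (SE 0.29, limma adjusted p = 0.124), 4.45 (SE 0.24, adjusted p = 0.000386) and 3.71 (SE 0.20, adjusted p = 0.000771). Clcf1, a cytokine of the interleukin-6 family, was at 0.121, 0.0986 and 0 TPM in IC, 0.557, 0.555 and 0.568 in EV, 3.70, 4.81 and 7.38 with the 3–100 kDa proteins, and 2.06, 2.13 and 1.91 with the total secretome. These 4 conditions did not overlap either and followed the same order, with mean TPM 7.63-fold, 72.2-fold and 27.7-fold that of IC. Without IC replicate 3, where Clcf1 was listed at 0, these ratios were 5.09, 48.1 and 18.5, and those of Emp1 were 6.10, 42.1 and 24.9. Clcf1 then had the larger ratio only with the 3–100 kDa proteins. Clcf1 was below the filter in EV against IC and was not tested there. It rose by 2.53 on the log2 scale with the 3–100 kDa proteins (SE 0.29, limma adjusted p = 0.00567) and by 1.51 with the total secretome (SE 0.22, adjusted p = 0.0175). The second call was lost without IC replicate 1 (adjusted p = 0.0716) or IC replicate 3 (0.0561), and without any 1 treated library Clcf1 no longer passed the filter.

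Sphk1, the kinase that makes sphingosine-1-phosphate, the ligand of S1pr3, was listed at 0 in all IC libraries, so its fold change against IC depends on the pseudocount and is not given. On the log2(TPM + 1) scale Sphk1 counted among the genes past the unadjusted p and fold change in each comparison with IC. It was at 1.61, 2.17 and 1.99 TPM in EV, 3.42, 4.43 and 4.84 with the 3–100 kDa proteins, and 1.28, 3.54 and 2.33 with the total secretome. All 9 treated libraries were above IC, with limma adjusted p of 0.0786, 0.00260 and 0.0410. The last call was lost without IC replicate 1 (adjusted p = 0.154) or IC replicate 3 (0.0949), and without any 1 treated library Sphk1 no longer passed the filter in any of the 3 comparisons. Ptgs2, the inducible cyclooxygenase, was at 0.726, 0.393 and 1.17 TPM in IC, 0.387, 0.621 and 1.02 in EV, 1.57, 3.02 and 2.63 with the 3–100 kDa proteins, and 2.05, 2.92 and 2.10 with the total secretome. EV overlapped with IC, and the other preparations lay above both (log2 fold changes 0.96 and 0.95, SE 0.29 and 0.26, limma adjusted p = 0.141 and 0.133). Ptx3, a secreted pentraxin, was at 15.2, 17.7 and 9.48 TPM in IC, 19.6, 39.1 and 16.6 in EV, 25.2, 33.5 and 21.8 with the 3–100 kDa proteins, and 22.7, 28.4 and 19.5 with the total secretome. EV overlapped with IC for Ptx3 and the others did not, with log2 fold changes of 0.72, 0.93 and 0.74 (SE 0.33, 0.22 and 0.22, limma adjusted p = 0.9998, 0.0779 and 0.157). B3gnt5, a glycosyltransferase, was at 2.83–7.19 TPM in all 12 libraries, with log2 fold changes between −0.08 and −0.01. Tm4sf1, Cd109, Slc10a6 and Cd14 were below the filter in every comparison with IC, and the highest of them was Cd14, the co-receptor for lipopolysaccharide. Cd14 was at 0, 0.135 and 0 TPM in IC, 1.07, 0.189 and 1.39 in EV, 0, 0.262 and 0.681 with the 3–100 kDa proteins, and 0.468, 0.727 and 1.303 with the total secretome. EV and the total secretome did not overlap with IC, and without the filter or in one fit of all 12 libraries Cd14 passed the unadjusted p and fold change in both comparisons.

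The promoters of Emp1 and Timp1, as genes that rose, and of Gja1, as an identity gene that did not pass the test, are shown to let the sequence be read beside the values. They are RefSeq sequences of GRCr8, from 250 bases before to 50 after the gene start, 5′ to 3′ on the gene's strand, at chr4:169943980-169944279 (+) for Emp1, chrX:3771073-3771372 (−) for Timp1 and chr20:36302314-36302613 (+) for Gja1, with matches to TGANTCA, the motif of AP-1 factors, and TTCNNNGAA, that of STAT factors, in capitals.
Emp1: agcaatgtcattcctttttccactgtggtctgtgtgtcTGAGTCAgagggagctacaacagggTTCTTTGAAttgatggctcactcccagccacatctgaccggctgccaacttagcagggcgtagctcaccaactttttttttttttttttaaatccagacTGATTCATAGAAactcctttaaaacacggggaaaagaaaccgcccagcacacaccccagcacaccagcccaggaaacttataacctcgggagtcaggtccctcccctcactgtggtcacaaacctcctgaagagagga
Timp1: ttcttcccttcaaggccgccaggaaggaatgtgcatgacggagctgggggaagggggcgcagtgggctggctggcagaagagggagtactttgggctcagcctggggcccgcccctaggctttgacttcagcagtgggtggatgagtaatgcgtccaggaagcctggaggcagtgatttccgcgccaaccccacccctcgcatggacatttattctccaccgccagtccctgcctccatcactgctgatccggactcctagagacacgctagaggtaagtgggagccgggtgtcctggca
Gja1: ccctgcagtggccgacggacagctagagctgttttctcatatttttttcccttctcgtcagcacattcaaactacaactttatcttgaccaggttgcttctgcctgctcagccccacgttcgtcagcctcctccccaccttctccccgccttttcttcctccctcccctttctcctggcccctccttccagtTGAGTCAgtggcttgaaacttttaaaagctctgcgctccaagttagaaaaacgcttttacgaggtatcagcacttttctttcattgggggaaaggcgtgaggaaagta
In Emp1 the letters TGAGTCA began at position −212 from the start and TGATTCA at −88, and TTCTTTGAA at −187 and TTCATAGAA at −85, the last overlapping the second AP-1 match. Timp1 held neither motif in this window, and Gja1 held TGAGTCA at −58. A promoter was found for 32 of the 37 genes, with no entry for Sox9, Serping1, Cd109, Clcf1 and A2m. These genes had 35 promoter windows, since Sphk1 had 3 and Aqp4 had 2. On either strand TGANTCA occurred in 4 of the windows (11.4%: Aspg, Emp1, Gja1 and Sphk1) and in 7.33% of all 33469 windows of the same length, and TTCNNNGAA in 5 (14.3%: Emp1, Psmb8, Serpina3n, Sphk1 and Steap4) and in 8.87% of all. The matches of Sphk1 to the 2 motifs lay in different windows. N stands for any base, so TGANTCA takes in TGATTCA, and these matches are a description of the letters only.

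Of the 7 A1 genes among the 37, none passed the adjusted threshold against IC in limma, with any of the 3 preparations. Another gene of that panel, Gbp2, was not among the 37 and is given with the other reactive genes further on. By the unadjusted p and fold change, 1 of 5 genes tested was higher in each comparison (1.56%, 6.64% and 5.54% of all genes), Psmb8 in EV and Fkbp5 in the other comparisons. With the replicate block, Psmb8 passed that rule with the total secretome too. Psmb8, a subunit of the immunoproteasome, was at 0.839, 3.15 and 1.08 TPM in IC, 3.87, 5.44 and 2.61 in EV, 4.89, 3.99 and 1.84 with the 3–100 kDa proteins, and 3.69, 5.23 and 1.58 with the total secretome. IC replicate 2 overlapped with each treated condition, and the log2 fold changes were 0.93, 0.81 and 0.75 (SE 0.37, 0.38 and 0.41, limma adjusted p = 0.9998, 0.347 and 0.428). Fkbp5, a co-chaperone of the glucocorticoid receptor, was at 21.2, 21.8 and 16.5 TPM in IC, 21.2, 26.9 and 20.7 in EV, 29.3, 37.4 and 26.7 with the 3–100 kDa proteins, and 32.6, 35.04 and 26.8 with the total secretome. EV overlapped with IC and the other preparations did not, with log2 fold changes of 0.19, 0.65 and 0.66 (SE 0.16, 0.15 and 0.14, limma adjusted p = 0.9998, 0.0736 and 0.0644). Amigo2, an adhesion protein, was at 3.03–4.25 TPM in IC, 2.94–4.45 in EV, 2.64–2.80 with the 3–100 kDa proteins and 1.96–2.91 with the total secretome. It was the only one of the 37 genes whose libraries lay below IC without overlap, with log2 fold changes of −0.27 and −0.45 for the last 2 preparations (limma adjusted p = 0.554 and 0.392). C3, the complement component used most often as an A1 marker, was at 0–0.311 TPM in the 12 libraries and was not tested, and Srgn was at 0–0.426 TPM. Ggta1 and Serping1, at 0.810–2.69 TPM, had log2 fold changes between 0.05 and 0.49.

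Of the further reactive genes, Pdpn, a mucin-type glycoprotein of reactive astrocytes, was at 49.1, 56.1 and 38.1 TPM in IC, 117, 146 and 105 in EV, 158, 160 and 165 with the 3–100 kDa proteins, and 115, 129 and 122 with the total secretome. All treated libraries were above IC, and the EV and total secretome libraries overlapped. Log2 fold changes were 1.33 in EV (SE 0.17, limma adjusted p = 0.0602), 1.78 with the 3–100 kDa proteins (SE 0.15, adjusted p = 0.00188) and 1.37 with the total secretome (SE 0.15, adjusted p = 0.00755). The last of these calls was lost without replicate 2 (adjusted p = 0.0660) or replicate 3 (0.0684) of the total secretome. A2m, a broad protease inhibitor, was at 3.00, 1.78 and 1.12 TPM in IC, 4.59, 7.44 and 3.99 in EV, 4.24, 5.62 and 3.51 with the 3–100 kDa proteins, and 4.24, 5.67 and 3.87 with the total secretome. The treated libraries were all above IC and overlapped one another, with log2 fold changes of 1.10, 0.94 and 0.97 (SE 0.30, 0.26 and 0.26, limma adjusted p = 0.743, 0.121 and 0.125). Tlr2, a receptor for bacterial lipoproteins, was at 0.209, 0.170 and 0.303 TPM in IC, 1.34, 1.19 and 1.17 in EV, 0.281, 0.746 and 0.774 with the 3–100 kDa proteins, and 1.38, 1.29 and 1.06 with the total secretome. EV and the total secretome lay above the other libraries, and in the 3–100 kDa comparison Tlr2 was below the filter. Its log2 fold changes were 0.86 in EV (SE 0.22, limma adjusted p = 0.701) and 0.87 with the total secretome (SE 0.22, adjusted p = 0.110). The 10 microglial markers together summed to 0.190–2.42 TPM in IC, 0.206–1.25 in EV, 0.201–0.552 with the 3–100 kDa proteins and 0.310–1.28 with the total secretome, which is of the order of Tlr2 itself, and their part in its values was not tested.

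**Figure D3:**
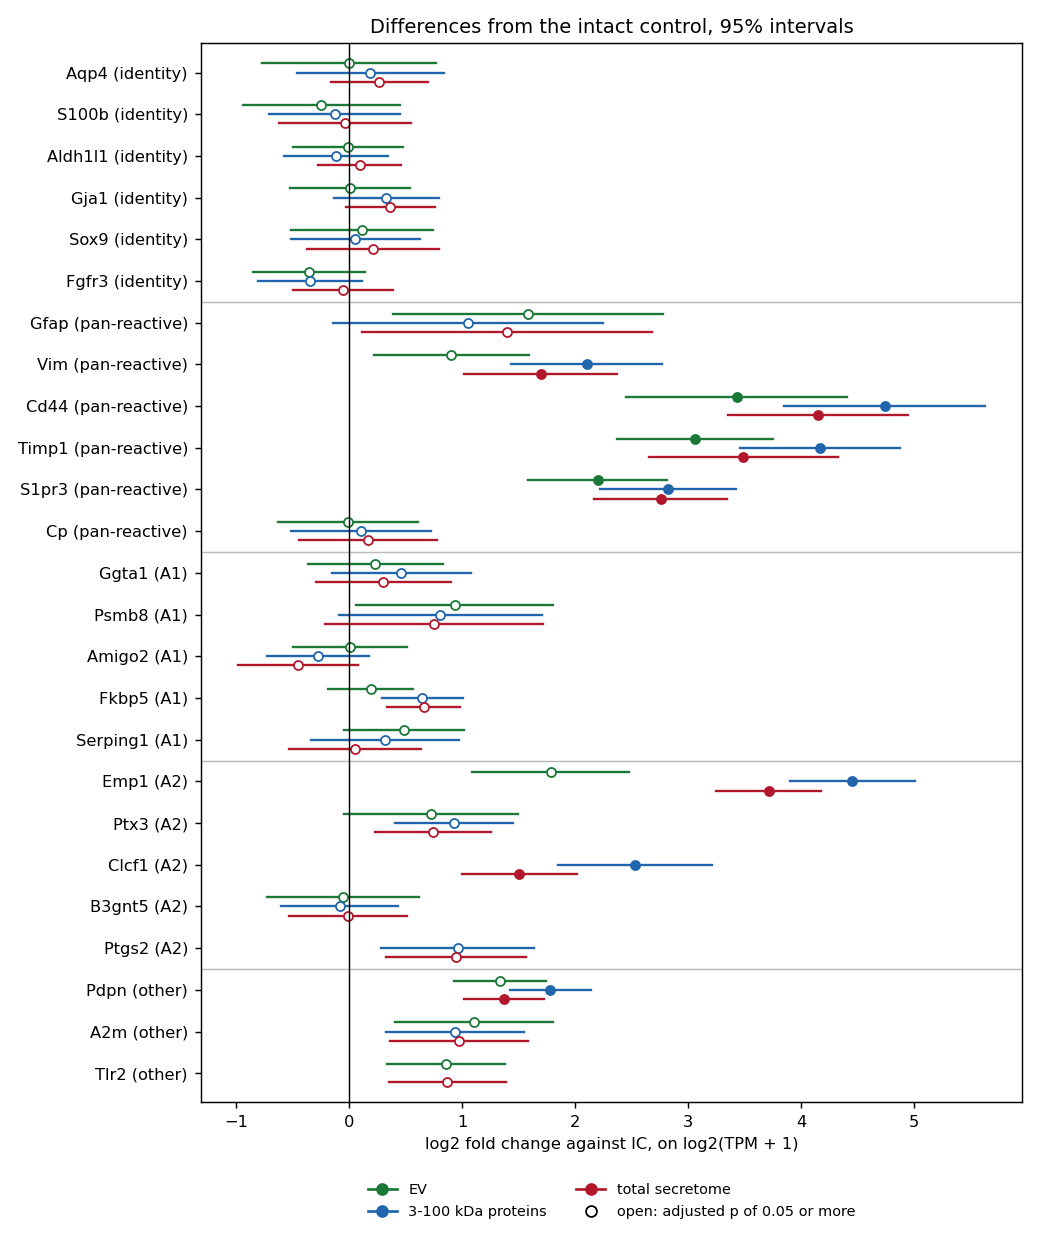
Log2 fold changes against IC on log2(TPM + 1) (x axis) of the genes tested, by panel (y axis), with 95% intervals from limma. Filled points have an adjusted p under 0.05, and the identity genes lie between −0.35 and 0.37 while Cd44 reaches 4.74. Sphk1, at 0 in IC, is left out.

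By panel, the counts of genes past the adjusted threshold in limma were 0 of 6 tested for identity in each comparison and 3, 4 and 4 of 6 for the pan-reactive panel in EV, with the 3–100 kDa proteins and with the total secretome. Of all genes tested, 0.102%, 2.83% and 1.68% were higher past it, and with the replicate block no gene passed in EV. For the A1 genes among the 37 they were 0 of 5 in each comparison, and for the A2 genes 0 of 4, 3 of 6 and 3 of 6. Of the 3 A2 genes, Clcf1 and Sphk1 passed the filter only through the treated libraries, and Clcf1 and Ptgs2 were not among the genes tested in EV. Among the A1 genes, C3 and Srgn stayed below the filter in each comparison. Whether the panels differed from one another was not tested. The libraries of a preparation lay above those of IC without overlap for 10 of 24 genes tested in EV, where this held for 3.24% of all genes, for 12 of 25 with the 3–100 kDa proteins (10.7%) and for 13 of 26 with the total secretome (11.4%).

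A list of 24 other genes of reactive astrocytes was written with earlier results of these data known, so its counts are no independent support. By the unadjusted p and fold change, 11 of 19 tested were higher in EV (1.56% of all genes), 16 of 20 with the 3–100 kDa proteins (6.64%) and 16 of 20 with the total secretome (5.54%), and none was lower. Past the adjusted threshold in limma there were 1, 10 and 10 (0.102%, 2.83% and 1.68% of all genes). The gene called in EV was Stat3, the transcription factor downstream of interleukin-6 family receptors, at 28.9, 29.1 and 25.7 TPM in IC and 67.1, 83.9 and 76.9 in EV. Its log2 fold changes were 1.40 (SE 0.13, limma adjusted p = 0.0154), 1.33 (SE 0.15, adjusted p = 0.00532) and 1.40 (SE 0.14, adjusted p = 0.00481) for the 3 preparations. The call for Stat3 in EV was lost with the replicate block (adjusted p = 0.109) and in every omission but that of IC replicate 2 (adjusted p = 0.0699 to 0.225), and that with the total secretome without its replicate 3 (0.0529).

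Socs3, a feedback inhibitor of that pathway, was at 1.45, 1.18 and 0.699 TPM in IC, 6.72, 5.40 and 6.10 in EV, 1.62, 2.59 and 3.58 with the 3–100 kDa proteins, and 3.42, 4.45 and 4.52 with the total secretome. Its highest libraries were those of EV, with log2 fold changes of 1.75 (limma adjusted p = 0.0602), 0.78 (adjusted p = 0.228) and 1.31 (adjusted p = 0.0393). The call for Socs3 with the total secretome was lost with the replicate block (adjusted p = 0.0643) and in every omission but that of IC replicate 2 (0.0662 to 0.214). Gbp2, an interferon-induced GTPase of the A1 panel, had log2 fold changes of 2.09, 2.05 and 1.72 (limma adjusted p = 0.0786, 0.00914 and 0.0116), and no IC library of it reached 1 TPM. The last call for Gbp2 was lost without IC replicate 1 (adjusted p = 0.0578), and without any 1 treated library Gbp2 no longer passed the filter. Hmox1, a haem-degrading enzyme, had 1.53, 1.97 and 2.02 (limma adjusted p = 0.0749, 0.00949 and 0.0165). Its calls were lost without replicate 2 (adjusted p = 0.0619) or 3 (0.0600) of the 3–100 kDa proteins and, for the total secretome, without IC replicate 1 (0.0716) or replicate 2 (0.0997) or 3 (0.0991) of the total secretome.

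The preparations were compared with one another for the same genes, at doses that differed, so the differences cannot be told apart from dose. Against the 3–100 kDa proteins, 8 of 26 genes tested were lower in EV by the unadjusted p and fold change, and none was higher, where 3.56% of all genes were lower. These were Vim, Cd44, Timp1, S1pr3, Emp1, Clcf1, Sphk1 and Ptgs2. Past the adjusted threshold in limma there were 2, where 0.494% of all genes were lower, namely Emp1 with a difference of −2.66 on the log2 scale (SE 0.27, adjusted p = 0.0145) and Clcf1 with −1.99 (SE 0.29, adjusted p = 0.0427). Clcf1 reached 1 TPM in no EV library, so it passed the filter here only through the libraries in which it was high. The same-numbered libraries of these conditions deviated together, and with the replicate block 5 genes passed, where 2.13% of all genes were lower, with adjusted p of 0.00216 for Emp1, 0.0201 for Clcf1, 0.0201 for Vim, 0.00941 for Cd44 and 0.0318 for Timp1. The differences of the last 3 were −1.19, −1.30 and −1.10. Without the block, the call for Emp1 was lost without EV replicate 2 (adjusted p = 0.0731) or 3 (0.0514) or replicate 2 (0.111) or 3 (0.115) of the 3–100 kDa proteins, and that for Clcf1 without any 1 EV library (0.0638 to 0.181), while without any 1 library of the 3–100 kDa proteins Clcf1 no longer passed the filter. For Gfap the difference was 0.54 (95% interval −0.06 to 1.15), which includes no difference, and for Aqp4 it was −0.17 (−1.03 to 0.68).

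Against the total secretome, 5 of 27 genes tested were lower in EV by the unadjusted p and fold change and none was higher, where 2.56% of all genes were lower. They were Vim (−0.78), Cd44 (−0.71), Emp1 (−1.92), Clcf1 (−0.96) and Ptgs2 (−1.02), as differences on the log2 scale. Clcf1 reached 1 TPM in no EV library here too, and Ptgs2 in 1. Emp1 alone passed the adjusted threshold (limma adjusted p = 0.0336, with 0.141% of all genes lower), and it no longer did with the replicate block (adjusted p = 0.0718), nor without EV replicate 2 (0.176) or replicate 1 (0.158), 2 (0.251) or 3 (0.217) of the total secretome. The difference of Pdpn was −0.02 (95% interval −0.35 to 0.31) and that of Timp1 −0.42 (−1.02 to 0.18). Between the total secretome and the 3–100 kDa proteins, 3 of 26 genes tested were lower with the total secretome by the unadjusted p and fold change (0.707% of all genes), Timp1 (−0.67), Emp1 (−0.74) and Clcf1 (−1.02), and with the replicate block Sphk1 (−0.67) as well. None passed the adjusted threshold in limma (0.00786% of all genes were lower), and the S1pr3 difference was −0.06 (95% interval −0.57 to 0.46). The identity genes passed neither rule in any of these 3 comparisons.

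**Figure D4:**
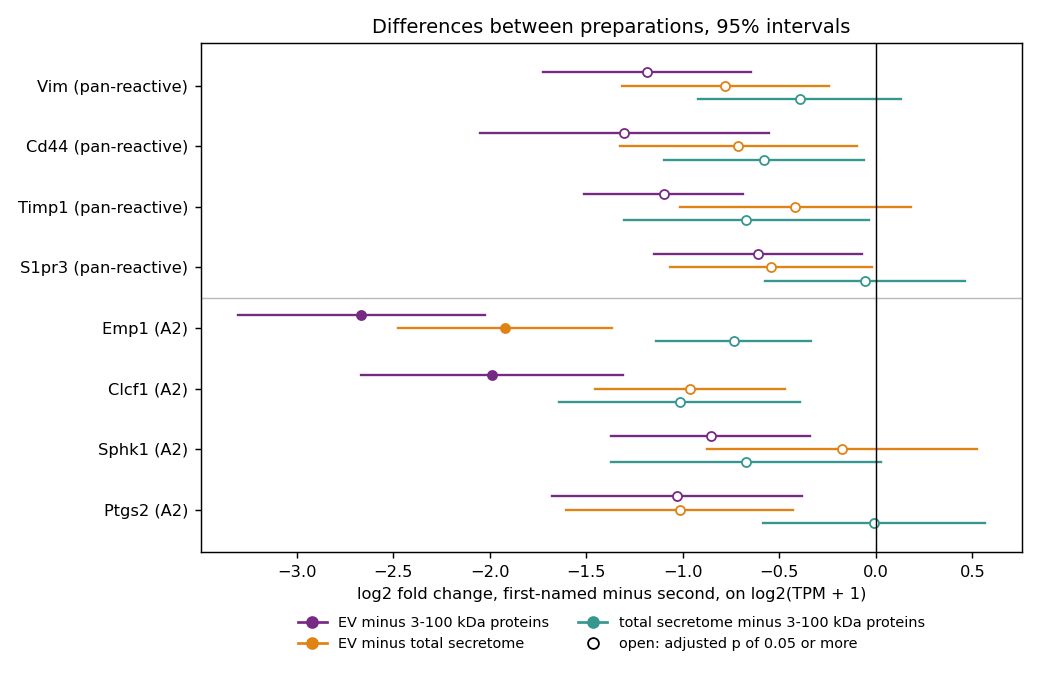
Differences between preparations on log2(TPM + 1) (x axis), first-named minus second, for the 8 genes that were lower in EV than with the 3–100 kDa proteins (y axis), with 95% intervals from limma. The 2 comparisons of Emp1 with EV and that of Clcf1 between EV and the 3–100 kDa proteins have an adjusted p under 0.05 (filled points).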

How the data were processed

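RNA was sequenced from 12 libraries in 4 groups of 3, grouped by their labels. Per the study's methods, the authors used FastQC for read quality, Trimmomatic and Cutadapt for trimming, Salmon for quantification against Ensembl rn6 transcripts (genome decoy), and tximport to reach the gene level. The deposited values do not name their unit and were taken as TPM, since each library sums to 1000000. TPM keeps no read depth, so no counting interval was computed, and the precision is that of 3 libraries a group.

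Rows of one name were summed. For each pair of groups, genes reaching 1 TPM in 3 or more of the 6 libraries were kept, TPM was rescaled by median-of-ratios factors (0.909 to 1.08) and log2(TPM + 1) was tested with limma 3.58.1 (R 4.3.3; lmFit, then eBayes with trend), and p was adjusted over all genes by Benjamini-Hochberg. The log2(TPM + 1) scale understates changes of low genes. The scripts were tested on simulated data. The members and lists were chosen with earlier results of these data known. Members given library by library are those past an unadjusted p of 0.05 and a fold change of 1.5 in a comparison with IC, the identity genes, Gfap and Vim. Outside this rule Cd14 is given so too, as the highest of the A2 genes below the filter against IC. Others are given by range, apart from up to 4 genes a list of lowest p in EV for lists outside the members. Alternatives were a pseudocount of 0.1, no filter, deposited TPM without rescaling, one fit of all 12 libraries, no trend, the row of highest mean per name, a replicate block, and each library left out.

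Same-numbered libraries were checked by correlating their deviations from group means across genes. Against IC the correlations for replicates 1 to 3 were −0.08, −0.18 and 0.54 (EV) and −0.01, −0.25 and 0.25 (3–100 kDa proteins), read as not paired, and 0.25, 0.16 and 0.16 (total secretome), read as paired. The comparisons between preparations were read as paired too, with 0.59, 0.29 and 0.30 (EV, 3–100 kDa proteins), 0.26, 0.19 and 0.21 (EV, total secretome) and 0.38, 0.21 and 0.24 (total secretome, 3–100 kDa proteins). This pairing comes from the data, since the labels give no batch. The readings conflict, since EV was read as paired with the total secretome and the total secretome with IC, but EV not with IC. In a principal component plot of IC and EV the authors removed variation by day. Which libraries shared a day is not given in the sources used here, so day could not be fitted, and whether replicate numbers follow it is unknown.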

Additional observations from a re-analysis of the deposited data

How the results depend on the processing

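The number of genes past the adjusted threshold in EV against IC was 3 and depended on the processing. It was 1 with a pseudocount of 0.1, 1 with the row of highest mean per name, 6 in one fit of all 12 libraries, which adds libraries to the estimate of spread, and 0 with the replicate block, where 12 genes passed the unadjusted p and fold change in limma. Between preparations, the count for EV against the 3–100 kDa proteins was 2, with 63 of all genes lower. It was 5 with the block (272 lower), 3 without rescaling (61 lower) and 1 without the filter (40 lower), where Clcf1 had a limma adjusted p of 0.0735. For EV against the total secretome it was 1 (18 of all genes lower), and 0 with the block (14 lower) or without the filter (10 lower). In these 2 fits Emp1 had a limma adjusted p of 0.0718 and 0.0780, while 5 genes passed the unadjusted rule in both. Without the filter, the call for Vim with the total secretome against IC was also lost (adjusted p = 0.0632). Of the log2 fold changes of single genes, 483 kept direction and side of the adjusted threshold under the alternatives other than an omission, 15 were no longer past it, 13 newly passed it, and none changed sign; the cause was not tested.

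Leaving out 1 library gave 0 to 2 genes past the adjusted threshold in EV, 5 to 10 with the 3–100 kDa proteins and 4 to 11 with the total secretome against IC. Over all genes, those higher past that threshold ran from 0 to 21 in EV, 75 to 408 with the 3–100 kDa proteins and 28 to 554 with the total secretome. With all libraries kept they were 13, 362 and 215. By the unadjusted p and fold change, the omissions gave 6 to 12 genes in EV and 9 to 15 with the total secretome against IC, 3 to 6 in EV against the total secretome, and 1 to 4 in the total secretome against the 3–100 kDa proteins. Shares of all genes by that rule are not given for the omissions. The highest counts with the 3–100 kDa proteins and the total secretome came without IC replicate 2, where those of all genes past the adjusted threshold were highest too. Omissions turned the sign of small differences of identity genes. In EV these ran from −0.25 to 0.35 for Aqp4, −0.48 to 0.019 for S100b, −0.17 to 0.10 for Aldh1l1, −0.15 to 0.20 for Gja1 and −0.067 to 0.39 for Sox9. With the 3–100 kDa proteins they ran from −0.041 to 0.47 for Aqp4, −0.36 to 0.14 for S100b, −0.25 to 0.030 for Aldh1l1 and −0.13 to 0.33 for Sox9, and with the total secretome from −0.27 to 0.23 for S100b and −0.23 to 0.11 for Fgfr3. The unknown read depth and the filter limit what can be said of the 9 genes that were below 1 TPM in most libraries.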

Other observations

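A further gene of the reactive list, chosen after its values were seen, was highest in EV. Cebpd, a transcription factor of the acute phase response, was at 1.82, 3.81 and 0.502 TPM in IC, 15.8, 11.6 and 8.03 in EV, 2.10, 3.30 and 2.57 with the 3–100 kDa proteins, and 6.62, 5.48 and 7.63 with the total secretome. The EV libraries were above all the others, and the libraries of the 3–100 kDa proteins lay within the range of IC. The differences of Cebpd between EV and IC (2.19 on the log2 scale, SE 0.44, limma adjusted p = 0.266) and between EV and the total secretome (0.71, SE 0.27, adjusted p = 0.586) did not pass the adjusted threshold. The difference between EV and the 3–100 kDa proteins was 1.76 on the log2 scale (SE 0.27, limma adjusted p = 0.0575), and that of Socs3 was 0.98 (SE 0.28, adjusted p = 0.283). With the replicate block, by which these conditions were read as paired, the adjusted p was 0.0331 for Cebpd (SE 0.26) and 0.0993 for Socs3 (SE 0.24), and 0.541% of all genes were higher in EV by that fit.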
